A study of Arabidopsis thaliana with 8 samples.

Results

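The 10 genes described here encode Aux/IAA proteins of Arabidopsis thaliana. They were chosen by gene identifier from the 32678 gene rows of each deposited count table: IAA1 (AT4G14560), IAA2 (AT3G23030), IAA3 (AT1G04240), IAA5 (AT1G15580), IAA6 (AT1G52830), IAA7 (AT3G23050), IAA14 (AT4G14550), IAA17 (AT1G04250), IAA19 (AT3G15540) and IAA29 (AT4G32280). All 10 identifiers were found. RNA of whole plants had been sequenced from 4 plant lines grown without salt (0 mM NaCl) or with 75 mM NaCl, and each combination had 1 library, 8 in all. The first control was the wild type, Col-0, and the other an empty vector line (EV) that expressed VP16 alone, a viral transcription activation domain. Lines T31-5 and T43-11 are both labelled as expressing a 3F-VP16 fusion and as tolerant of salinity, and the series title calls the fusion an artificial transcription factor. The sources used here do not give the promoter driving these proteins, the age of the plants, the length of the treatment or the number of plants behind a library. Lines served as replicates, and the p-values rest on the spread among these samples alone, which may be technical.

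Aux/IAA proteins are short-lived repressors of auxin signalling. They bind auxin response factors (ARFs) on the promoters of auxin-regulated genes and recruit TOPLESS co-repressors through an EAR motif (L.L.L, leucines at alternate positions). Auxin brings their degron, centred on the residues GWPPV, to the F-box receptors TIR1 and AFB, after which they are degraded and the ARFs are released. Many Aux/IAA genes are themselves switched on by auxin through ARFs, so their transcripts are widely used as a readout of auxin response. In this family IAA7 (AXR2), IAA14 (SLR) and IAA17 (AXR3) are known from stabilising mutations that change gravitropism, lateral roots and root hairs, IAA3 (SHY2) from the root meristem, IAA19 (MSG2) from hypocotyl bending, and IAA29 as a shade-induced target of PIF transcription factors. IAA5, IAA6 and IAA19 have been described in drought responses.

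All 10 genes encode both motifs in the annotated first transcript model. The DNA coding for the degron is shown for 6 genes because the proteins share the core while their transcripts behave differently below. It was read from the coding strand of the RefSeq annotation on assembly TAIR10.1, and capitals mark the codons of GWPPV.
IAA7: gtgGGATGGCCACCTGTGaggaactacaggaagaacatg
IAA14: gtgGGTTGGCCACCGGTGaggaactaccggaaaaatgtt
IAA17: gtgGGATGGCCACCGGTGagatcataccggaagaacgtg
IAA2: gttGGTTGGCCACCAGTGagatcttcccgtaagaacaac
IAA19: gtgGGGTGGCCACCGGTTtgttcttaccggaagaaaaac
IAA29: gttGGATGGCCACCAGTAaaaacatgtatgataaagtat
Across the 10 genes the core was written in 9 different DNA spellings, with IAA6 and IAA7 sharing 1. Of the 7 residues encoded after the core, IAA14 had 6 in common with IAA7 and IAA29 had 0. IAA14 and IAA7 were the most alike of all pairs over the whole protein, with 86.0% identical residues. The second most alike pair was IAA1 and IAA2 at 78.6%, and the least alike was IAA17 and IAA29 at 26.6%.

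Promoters were searched from 250 bases before to 50 bases after the annotated start for 3 motifs of 6 bases, on both strands. TGTCTC, the classical auxin response element, was present in 4 of 10 members (IAA1, IAA5, IAA6 and IAA19) and in 14.2% of 27443 annotated promoters. TGTCGG, a form that ARFs bind with high affinity, was present in 2 members (IAA1 and IAA5) and in 5.12% of promoters. CACGTG, the G-box that PIF factors bind, was present in 3 members (IAA7, IAA14 and IAA19) and in 7.68% of promoters. A match describes letters only and is not a shown binding site. The 250 bases before the start of IAA19 and of IAA29 are given as examples with the most and none of these motifs. IAA2, IAA3 and IAA17 held none either. In the 3-line salt fit below IAA19, IAA29, IAA2 and IAA17 fell and IAA3 did not pass. A link between these motifs and the salt response was not tested. Capitals mark TGTCTC and CACGTG, and the sequences are chr3:5263751-5264000 and chr4:15583082-15583331 on the plus strand of TAIR10.1.
IAA19: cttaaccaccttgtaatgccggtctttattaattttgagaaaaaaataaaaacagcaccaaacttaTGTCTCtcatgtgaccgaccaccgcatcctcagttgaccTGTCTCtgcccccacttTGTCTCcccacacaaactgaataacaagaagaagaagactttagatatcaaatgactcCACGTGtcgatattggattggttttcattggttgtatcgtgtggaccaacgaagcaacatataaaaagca
IAA29: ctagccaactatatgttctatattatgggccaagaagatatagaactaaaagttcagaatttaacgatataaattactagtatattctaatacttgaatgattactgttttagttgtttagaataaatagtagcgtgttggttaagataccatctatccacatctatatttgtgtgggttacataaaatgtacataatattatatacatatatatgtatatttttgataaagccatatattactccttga

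Libraries held 13007480 to 22820814 reads on genes. The lowest number was in Col-0 at 75 mM, and the next lowest was 18664963 in T43-11 at 0 mM. Levels are CPM, the reads of a gene per 1000000 gene reads of the library, after scaling by TMM factors that even out composition, and a count of 0 would allow up to 0.131 to 0.231 CPM (3 reads). The transcript of LTI78 (RD29A), a standard marker of osmotic stress, ran from 4.55 to 5.43 CPM without salt and from 33.6 to 39.5 CPM with salt in Col-0, EV and T31-5. T43-11 had 58.8 CPM without and 52.7 CPM with salt, so by this marker the library labelled T43-11 at 0 mM goes against its salt label and stood with the salt-treated libraries. Between the 2 libraries of T43-11, 0 of 12067 genes averaging 10 CPM or more differed 2-fold. Such closeness was not particular to T43-11. At 0 mM, 0 of these genes were at least 2-fold higher in T31-5 than in EV and 1 was lower. At 75 mM the counts were 13 and 14 for T31-5 over EV, and 6 and 3 for T43-11 over EV. EV and T31-5, used as 2 lines in the fits, were thus nearly equal at 0 mM. Reads on an added row named T31 numbered 0 in Col-0, 68 and 83 in EV, 67 and 106 in T31-5 and 500 and 587 in T43-11, so this row did not separate T31-5 from EV and does not check the labels of these libraries. An added row named T43 had 606 and 711 reads in T43-11 and at most 1 in any other library. Lines and salt levels are given as labelled throughout; whether a library carries another sample's label was not tested, which bears on every comparison of line classes and on the salt ratios of T43-11. The salt response was therefore tested in all 4 lines and again in the 3 lines without T43-11, in each case with line as a block.

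Per kilobase of exon, the members spanned from abundant to barely detected. IAA2 averaged 60.7 CPM per kilobase over the 8 libraries (range 43.1 to 88.9) and IAA7 56.1 (32.8 to 89.9), so these most abundant members did not differ beyond their spread. IAA17 followed at 28.9 (12.9 to 47.6) and IAA3 at 22.3 (11.7 to 26.4). IAA14 at 6.98 (4.30 to 8.39) and IAA1 at 5.89 (1.80 to 8.51) overlapped each other and lay below every library of IAA3. IAA19 averaged 3.15 (1.07 to 5.28), IAA29 2.72 (0.482 to 7.84), IAA6 0.948 (0.0902 to 2.07) and IAA5 0.489 (0.198 to 1.01). The range of each overlapped that of its neighbour in the order, although IAA29 was above IAA6 within every library. IAA5 had 2 to 19 reads per library and did not reach the level required for testing (0.468 CPM in at least 2 libraries), so 9 of 10 members were among the 20585 genes tested. Its level ran from 0.155 to 0.785 CPM, highest in T31-5 at 75 mM, and its log2 salt ratio in that line was 1.20 (95% counting interval 0.08 to 3.07).

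**Figure D1:**
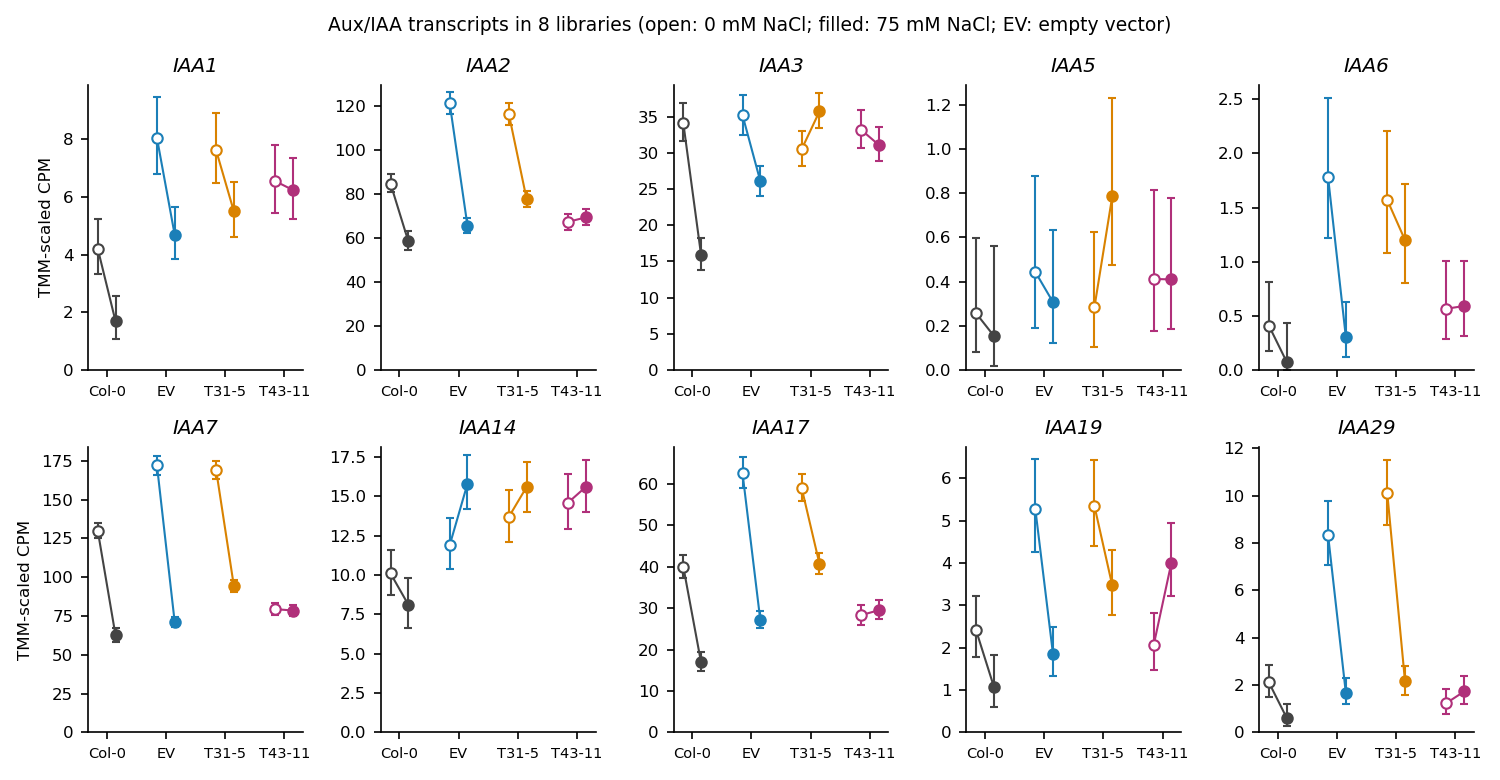
Level of each Aux/IAA gene (TMM-scaled CPM, linear axis from 0) in each of the 8 libraries, open circles for 0 mM and filled circles for 75 mM NaCl, with exact 95% Poisson intervals that cover counting error only; EV is the line with the empty vector. IAA2 and IAA7 were lower in every 75 mM library of Col-0, EV and T31-5 than in any of their 0 mM libraries, and the T43-11 circles lie close together for 8 of these genes other than IAA19 and IAA29.

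Most of the Aux/IAA transcripts were lower with salt in Col-0, EV and T31-5. Of the 9 members tested in these 3 lines, 6 fell (IAA29, IAA19, IAA7, IAA17, IAA1 and IAA2), 3 did not pass (IAA6, IAA3 and IAA14) and 0 rose, at an adjusted p below 0.05 in edgeR's quasi-likelihood test with Benjamini-Hochberg adjustment over all tested genes. Over all genes, 15.4% fell and 14.4% rose in the same test. The median log2 change was -0.99 over the 9 members and 0.02 over all genes. The members had been chosen with earlier results of these data known, so the count is a description of these genes.

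Tissue markers moved in the same libraries. The summed level of 6 leaf markers was 42800 to 49200 CPM at 0 mM and 27400 to 27800 CPM at 75 mM in the 3 lines, and 28000 and 29000 CPM in T43-11; all 6 fell in the 3-line fit and none was at 0 in any library. The summed level of 8 root markers was 1280 to 1380 CPM at 0 mM and 1650 to 2350 CPM at 75 mM in the 3 lines, and 2140 and 2170 CPM in T43-11. In the 3-line fit 4 rose and 0 fell, and none was at 0 in any library. Most of this sum was PYK10, with 1280 CPM without and 1550 CPM with salt in Col-0. The 3-line estimates were above 0 for 7 root markers and below 0 for SCR (-0.18), and in Col-0 CASP1 and SHV2 were also lower with salt. The 5 flower markers summed to 11.5 to 20.7 CPM at 0 mM and 3.02 to 16.4 CPM at 75 mM in the 3 lines, with up to 3 of 5 at 0 in a library. T43-11 had 6.8 CPM without and 6.01 CPM with salt. Of the 3 flower markers tested in the 3-line fit, 2 fell and 0 rose. The part of the leaf, root and flower markers in the change of the Aux/IAA genes was not tested. In RNA from whole plants, fewer cells of a type and less RNA per cell cannot be told apart.

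IAA29, the PIF target, had the largest change of the 9 tested members in the 3-line fit. Its level was 2.11 CPM without and 0.619 CPM with salt in Col-0, 8.33 and 1.67 CPM in EV, 10.1 and 2.15 CPM in T31-5, and 1.24 and 1.73 CPM in T43-11. It was lower at 75 mM in each of the first 3 lines, but Col-0 at 0 mM was as low as T31-5 at 75 mM, so the salt levels overlapped between lines. In the 3-line fit it fell by 2.21 (log2 scale, as are all changes below; SE 0.19, edgeR adjusted p = 0.000813). The counting behind it was thin, with 8 reads in Col-0 at 75 mM and 211 reads in T31-5 at 0 mM.

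IAA7, a repressor known from gravitropism, was among the most abundant members, so counting error on it was small. Its level was 130 CPM without and 62.6 CPM with salt in Col-0, 172 and 71.0 CPM in EV, 169 and 94.2 CPM in T31-5, and 79.4 and 78.5 CPM in T43-11. In the first 3 lines every 75 mM library lay below every 0 mM library, and both T43-11 libraries lay inside the 75 mM range. IAA7 fell by 1.07 (SE 0.09, edgeR adjusted p = 0.00083).

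IAA2, the neighbour of IAA7 on the chromosome, showed the same separation with a smaller change. Its level was 84.6 CPM without and 58.5 CPM with salt in Col-0, 121 and 65.5 CPM in EV, 116 and 77.5 CPM in T31-5, and 67.3 and 69.3 CPM in T43-11. The groups of the first 3 lines did not overlap, and T43-11 again sat at the 75 mM level. IAA2 and IAA7 were the 2 members with every 75 mM library of these lines below every 0 mM library, which held for 20.5% of all tested genes, so the separation is not particular to them. IAA2 fell by 0.68 (SE 0.09, edgeR adjusted p = 0.00267).

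IAA17, known from root hairs and gravitropism, had 40.0 CPM without and 16.9 CPM with salt in Col-0, 62.6 and 27.2 CPM in EV, 59.0 and 40.7 CPM in T31-5, and 28.3 and 29.5 CPM in T43-11. It was lower with salt within each of the 3 lines, while T31-5 at 75 mM was level with Col-0 at 0 mM. IAA17 fell by 0.99 (SE 0.15, edgeR adjusted p = 0.00873), a call lost without Col-0 (adjusted p = 0.0643), without EV or without the line block.

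IAA19, known from hypocotyl bending, had 2.41 CPM without and 1.08 CPM with salt in Col-0, 5.28 and 1.84 CPM in EV, 5.34 and 3.47 CPM in T31-5, and 2.06 and 4.01 CPM in T43-11. It was lower with salt in the first 3 lines and higher in T43-11. IAA19 fell by 1.08 in the 3-line fit (SE 0.23, edgeR adjusted p = 0.0167), a call lost without EV or without the line block.

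IAA1, a small early auxin-response member, had 4.21 CPM without and 1.70 CPM with salt in Col-0, 8.05 and 4.69 CPM in EV, 7.62 and 5.50 CPM in T31-5, and 6.55 and 6.24 CPM in T43-11. Each of the 3 lines was lower with salt, with Col-0 below the others at both levels. IAA1 fell by 0.80 (SE 0.18, edgeR adjusted p = 0.0201), a call lost without EV, without the block, or when the libraries of EV and T31-5 were added up as 1 line.

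IAA6, IAA3 and IAA14 did not pass. IAA6, linked to drought responses, had 1 to 33 reads per library; its level was 0.411 CPM without and 0.0773 CPM with salt in Col-0, 1.78 and 0.307 CPM in EV, 1.57 and 1.20 CPM in T31-5, and 0.567 and 0.592 CPM in T43-11. Its estimate was as large as those of called members, at -1.34 (SE 0.50, edgeR adjusted p = 0.0907), and without T31-5 it passed (adjusted p = 0.0346). The 1 read in Col-0 at 75 mM gives a log2 ratio of -1.53 in that line with a 95% counting interval from -7.88 to 0.49.

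IAA3, known from the root meristem, had 34.1 CPM without and 15.9 CPM with salt in Col-0, 35.2 and 26.1 CPM in EV, 30.5 and 35.7 CPM in T31-5, and 33.2 and 31.1 CPM in T43-11. The lines went different ways, lower in Col-0 and EV and higher in T31-5. Its change was -0.42 (SE 0.26, edgeR adjusted p = 0.296), and it passed only when T31-5 was left out, among the alternatives tried (adjusted p = 0.0355).

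IAA14, known from lateral roots, had 10.1 CPM without and 8.12 CPM with salt in Col-0, 11.9 and 15.8 CPM in EV, 13.7 and 15.6 CPM in T31-5, and 14.6 and 15.6 CPM in T43-11. Col-0 at 75 mM was the lowest library and the other 75 mM libraries were close together. Its change was 0.10 (SE 0.14, edgeR adjusted p = 0.618). IAA14 thus had an estimate near 0 where its closest relative by protein, IAA7, fell by 1.07; the difference between these estimates was not tested.

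**Figure D2:**
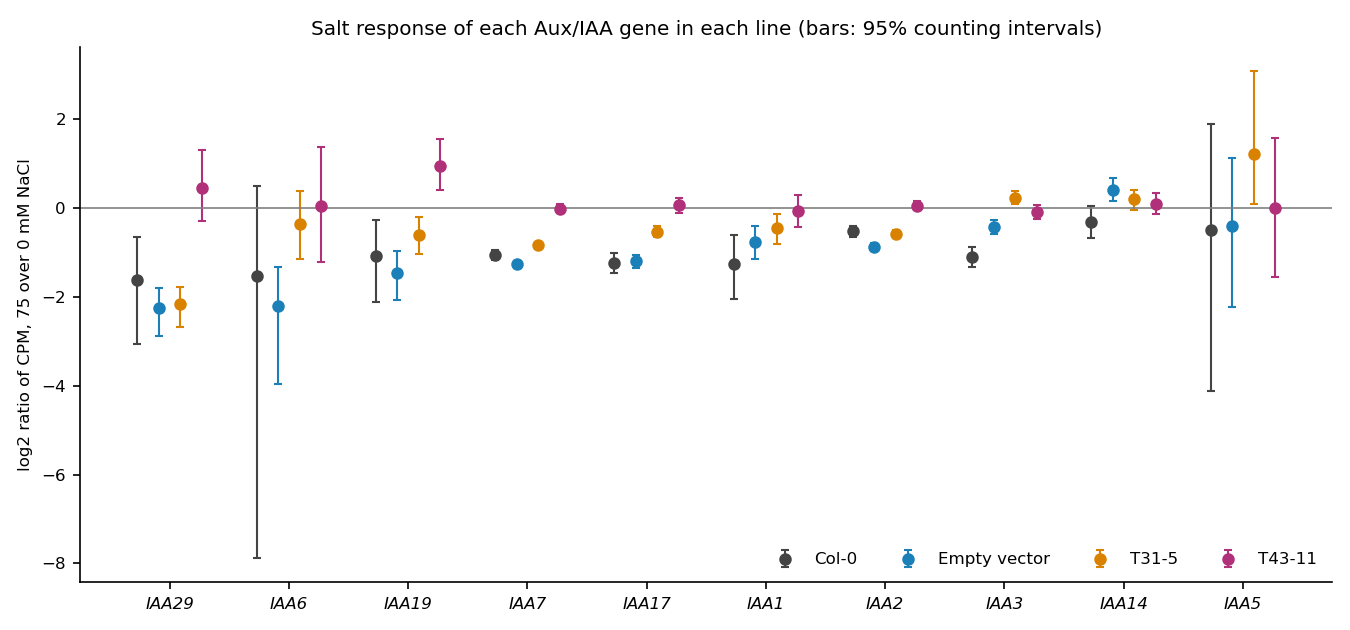
Log2 ratio of CPM at 75 over 0 mM NaCl for each Aux/IAA gene in each line, with a prior count of 2 and 95% counting intervals from an exact conditional binomial, which cover counting error only. IAA29 lies between -2.25 and -1.62 in Col-0, EV and T31-5 and at 0.45 in T43-11.

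Line by line, the median log2 ratio of the 5 members averaging 10 CPM or more was -1.06 in Col-0, -0.88 in EV, -0.54 in T31-5 and 0.04 in T43-11. Among these 5, members at least 2-fold lower with salt numbered 3 in Col-0 (IAA3, IAA7 and IAA17), against 2.49% of genes at that level. With CPM scaled by gene reads alone, which moved the median ratio of all genes by 0.14, the Col-0 count was 1 (IAA17). The EV line had 2 (IAA7 and IAA17) against 1.60% of genes, T31-5 had 0 against 1.57%, and T43-11 had 0 against 0%. Over the 8 members averaging 1 CPM or more, a limit added after the data were seen, the counts were 6 in Col-0 against 4.11% of genes, 4 in EV against 2.66%, 1 in T31-5 (IAA29) against 2.31%, and 0 in T43-11 against 0.0214%. These single-line values compare 2 libraries each and carry no test.

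With T43-11 included, no member passed. In the 4-line fit the members that fell at an adjusted p below 0.05 numbered 0 of 9 in edgeR and 4 of 9 in DESeq2. In edgeR 5 had an unadjusted p below 0.05. Over all genes 0% were lower in edgeR, with 6006 at an unadjusted p below 0.05 in either direction. DESeq2 called 774 genes higher and 1017 lower. The members' median log2 change was -0.60, and their estimates ran from -1.57 for IAA29 to 0.11 for IAA14.

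The library labelled T43-11 at 0 mM was set against the other lines. For 5 of 9 tested members (IAA2, IAA7, IAA17, IAA19 and IAA29) it lay below all other 0 mM libraries and inside the 75 mM range of the other lines, as it did for 18.3% of all tested genes. For IAA14 it lay above the other 0 mM libraries and inside their 75 mM range, as for 24.2% of genes. For IAA1, IAA3 and IAA6 it lay inside the 0 mM range, as for 23.5% of all tested genes, and so it did for the untested IAA5. For IAA1, at 6.55 CPM, it also lay above the 75 mM range of the other lines (1.70 to 5.50 CPM). Within T43-11 the log2 ratio ran from -0.10 to 0.93, and only the interval of IAA19 (0.93, 95% counting interval 0.40 to 1.54) lay off 0. T43-11 is 1 line with 1 library per salt level, singled out with its nearly equal libraries already known. The SE and p of its difference therefore come from the spread of the other 3 lines and assume that T43-11 varies as they do. In that fit the salt response of T43-11 differed from that of the other lines for IAA29 by 2.67 (SE 0.41, edgeR adjusted p = 0.0386) and for IAA7 by 1.04 (SE 0.18, adjusted p = 0.0469), so 2 of 9 members passed as higher and 0 as lower, against 1.33% and 1.10% of all genes. The estimates for the other members were 2.01 for IAA19 (adjusted p = 0.0868), 1.38 for IAA6, 1.03 for IAA17, 0.71 for both IAA2 and IAA1, 0.31 for IAA3 and -0.03 for IAA14, and none of these passed. Both calls were lost without EV and when EV was added to T31-5 as 1 line, and the IAA29 call also without T31-5.

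No member passed the test of the 3F-VP16 lines against the control lines. That fit held all 8 libraries by class and salt level, without a line block. The 2 libraries of a line were thus treated as independent, and the spread came from both salt levels, the T43-11 library at 0 mM included. With the libraries of 75 mM alone, 0 genes passed in either direction, and the lowest edgeR adjusted p was 0.647. At 0 mM the members passing in edgeR numbered 0 of 9, with 0 at an unadjusted p below 0.05 and 0 in DESeq2, and over all genes 0% were higher and 0% lower (1093 at an unadjusted p below 0.05, 0 in DESeq2). The median member estimate was -0.05, with 3 above 0 and 6 below; the members above 0 numbered 8 without T43-11 and 2 without T31-5, so the direction depended on which 3F-VP16 line was kept. At 75 mM all 9 tested members had estimates above 0, from 0.24 for IAA2 to 2.03 for IAA6 with a median of 0.66, where the median of all genes was 0. The median of the 9 was 0.33 without Col-0 and 1.08 without EV. None of the 9 passed in edgeR or DESeq2, 1 had an unadjusted p below 0.05 (IAA3, estimate 0.66, edgeR adjusted p = 0.999), and over all genes 0% were higher and 0% lower (731 at an unadjusted p below 0.05, 9 higher and 9 lower in DESeq2). The control group at 75 mM held the Col-0 library, the lowest of the 75 mM libraries for each of the 10 members, and without Col-0 the estimate for IAA14 was -0.02. That Col-0 library also had the fewest reads on genes of all libraries (13007480).

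Col-0 also lay below EV and T31-5 without salt for most members. At 0 mM, of the 8 members averaging 1 CPM or more, 8 were above Col-0 in EV, 7 in T31-5 and 2 in T43-11. The median log2 ratio of all genes at that level was -0.01 in EV, -0.01 in T31-5 and 0.03 in T43-11. The share of all genes above Col-0 was not computed. These counts use the same Col-0 library, and EV and T31-5 were nearly equal at 0 mM. Of the 8 members, 2 (IAA19 and IAA29) were at least 2-fold higher in EV than in Col-0, against 2.28% of genes. The same 2 were so in T31-5, against 2.06%. IAA29 had a log2 ratio of 1.93 (95% counting interval 1.48 to 2.52) in EV and of 2.20 (1.77 to 2.78) in T31-5. At 75 mM the count over Col-0 was 2 of 8 in EV (IAA1 and IAA29), against 3.68% of genes, and 5 of 8 in T31-5 (IAA1, IAA3, IAA17, IAA19 and IAA29), against 5.06%. In T43-11 it was 3 of 8 (IAA1, IAA19 and IAA29), against 4.53%. Between T31-5 and EV at 0 mM the log2 ratios of these 8 members ran from -0.20 for IAA3 to 0.27 for IAA29. At 75 mM T31-5 was above EV for 7 of them, with a median log2 ratio of 0.38 against -0.01 over all genes at that level. The highest was 0.88 for IAA19 (0.36 to 1.48). T43-11 at 75 mM was likewise above EV for 7 of the 8, with a median of 0.13 against -0.01. The share of all genes above EV was not computed. These ratios compare 2 libraries at a time and have no replicate check.

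The members include 3 head-to-head pairs of neighbouring genes, transcribed away from each other with 1 annotated non-coding gene between them. IAA14 (chromosome 4, 8347822 to 8350263, minus strand, TAIR10.1) lies 10732 bases from IAA1 (8360996 to 8362033, plus strand). IAA2 (chromosome 3, 8180646 to 8182095, minus strand) lies 12510 bases from IAA7 (8194606 to 8197161, plus strand). IAA3 (chromosome 1, 1128149 to 1129689, minus strand) lies 6388 bases from IAA17 (1136078 to 1138663, plus strand). The other members lie apart: IAA5 (chromosome 1, 5365512 to 5366497, minus strand), IAA6 (chromosome 1, 19672476 to 19673652, minus strand), IAA19 (chromosome 3, 5264001 to 5265695, plus strand) and IAA29 (chromosome 4, 15583332 to 15584903, plus strand). In the 3-line fit both genes of the IAA2 and IAA7 pair fell, whereas in the other pairs IAA1 and IAA17 fell and IAA14 and IAA3 did not pass.

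Within pairs, the log2 salt ratio of IAA14 exceeded that of IAA1 in 4 of 4 lines, by 0.73 ± 0.44 (SD, n = 4 lines, exact permutation p = 0.125, two-sided). IAA2 exceeded IAA7 in 4 of 4 lines by 0.31 ± 0.20 (exact permutation p = 0.125), and IAA3 exceeded IAA17 in 3 of 4 lines by 0.38 ± 0.46 (exact permutation p = 0.375). The smallest p this design allows is 0.125, so no pair could pass; adjusted over the 3 pairs the values are 0.188, 0.188 and 0.375 (exact permutation test).

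**Figure D3:**
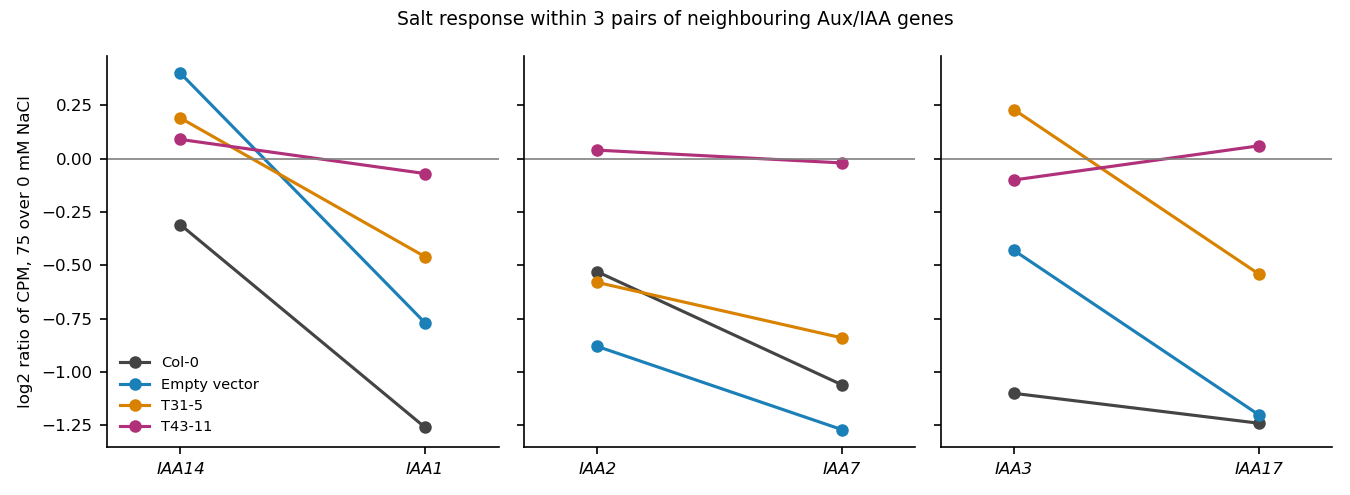
Log2 ratio of CPM at 75 over 0 mM NaCl (prior count of 2) for both genes of 3 neighbouring pairs, 1 line per plant line. The plus-strand gene (IAA1, IAA7 or IAA17) is the lower of its pair in every line except for IAA17 in T43-11.

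Members varied together to different degrees over the 8 libraries. Pearson's r of log2 CPM was 0.98 between IAA2 and IAA7 and 0.95 between IAA7 and IAA17, and -0.02 between IAA7 and IAA14. These libraries share lines and salt levels, so the values are descriptions. Among 14796 other genes averaging 5 CPM or more, the transcript most like IAA7 over the 8 libraries was AT1G66940 (r = 0.999), followed by AT4G33740 (r = 0.997) and the NAC factor gene NAP (r = 0.996). IAA3 had AT5G23750 (r = 0.994), ZFP4 (r = 0.98) and the family member IAA28 (r = 0.979) nearest to it. For IAA17 the sulfate transporter gene SULTR3;5 came first (r = 0.996), for IAA14 UMAMIT14 (r = 0.989), for IAA2 AT4G36520 (r = 0.992) and for IAA1 LpxC5 (r = 0.991).

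The rest of the Aux/IAA family was followed in the same fit. Of 19 other family genes, 13 were tested, 6 fell, 0 rose, and the median change was -0.37. Over all tested genes 15.4% fell and 14.4% rose, with a median of 0.02. IAA12 (BODENLOS) fell by 0.81 (edgeR adjusted p = 0.00168), IAA16 by 0.65 (adjusted p = 0.00147), IAA4, listed as ATAUX2-11, by 0.53 and IAA26, listed as PAP1, by 0.39. Without EV 2 of them fell, and 3 without T31-5, where 1228 and 1734 of all 20585 tested genes fell. Summed over the 10 members, transcripts made up 29.8 to 34.5% of all Aux/IAA CPM at 0 mM in Col-0, EV and T31-5 and 22.7 to 27.5% at 75 mM, and 24.7 and 24.9% in T43-11.

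Upstream of the Aux/IAA proteins, the receptor genes split. Of 6 tested, 2 fell (AFB3 by 0.38 and AFB2 by 0.23) and 2 rose (AFB1, listed as GRH1, by 0.27 and TIR1 by 0.21). Of 15 ARF genes, 3 fell, among them ARF10 by 0.79 and ARF2 by 0.51, 1 rose (ARF3, listed as ETT, by 0.53) and 11 did not pass. Of 8 co-repressor and SCF genes, 2 rose and 3 fell, including AXR1, which activates the SCF complex, up by 0.46. For auxin synthesis 2 of 9 tested genes fell, YUC2 by 1.21 and TAA1 by 0.84, and 0 rose. For auxin transport 3 of 13 fell, including the efflux carrier PIN3 by 0.82 and the influx carrier AUX1 by 0.65, and 2 rose, including ABCB1 by 0.52. All these are log2 changes in the 3-line edgeR fit. With 15.4% of all tested genes lower and 14.4% higher in that fit, the counts of the ARF, synthesis and transport genes lie near the background, and the other lists here are short, so they are not results about these lists. Without EV fewer genes passed over all genes as well, with 828 higher and 1228 lower against 2970 and 3172. In that fit 0 receptor genes passed in either direction, and 1 co-repressor or SCF gene rose and 0 fell. There 0 ARF and 0 transport genes rose, and 1 synthesis gene fell.

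Other early auxin-response genes were followed in the same 3-line fit, in which 15.4% of all tested genes fell and 14.4% rose. The lists of GH3 genes and of light and shade regulators are short, so their counts are not results about these lists. Without EV the calls over all genes also dropped, to 828 higher and 1228 lower from 2970 and 3172. Of 17 tested SAUR genes, which encode small growth-promoting proteins, 8 fell, 9 did not pass and 0 rose, with a median of -0.89; SAUR63 fell by 1.08 and SAUR19 by 0.92. The SAUR genes lie in clusters of close copies, so reads may be split among them. Without EV 1 SAUR gene fell, and 3 fell when EV was added to T31-5. Of 6 tested GH3 genes, whose enzymes conjugate auxin, 1 fell, 2 rose and 3 did not pass: GH3.3 fell by 0.61, and GH3.17 rose by 0.56 and GH3.6, listed as DFL1, by 0.50, but without EV 0 GH3 genes passed. Of 8 tested light and shade regulators, 6 fell and 0 rose, with HAT2 at -1.22, ATHB2, listed as HB-2, at -0.90, and HFR1 at -0.85; without EV 1 fell. The leaf marker sums were lower and the root marker sums, mostly PYK10, higher in the same libraries, and their part in these changes was not tested.

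**Figure D4:**
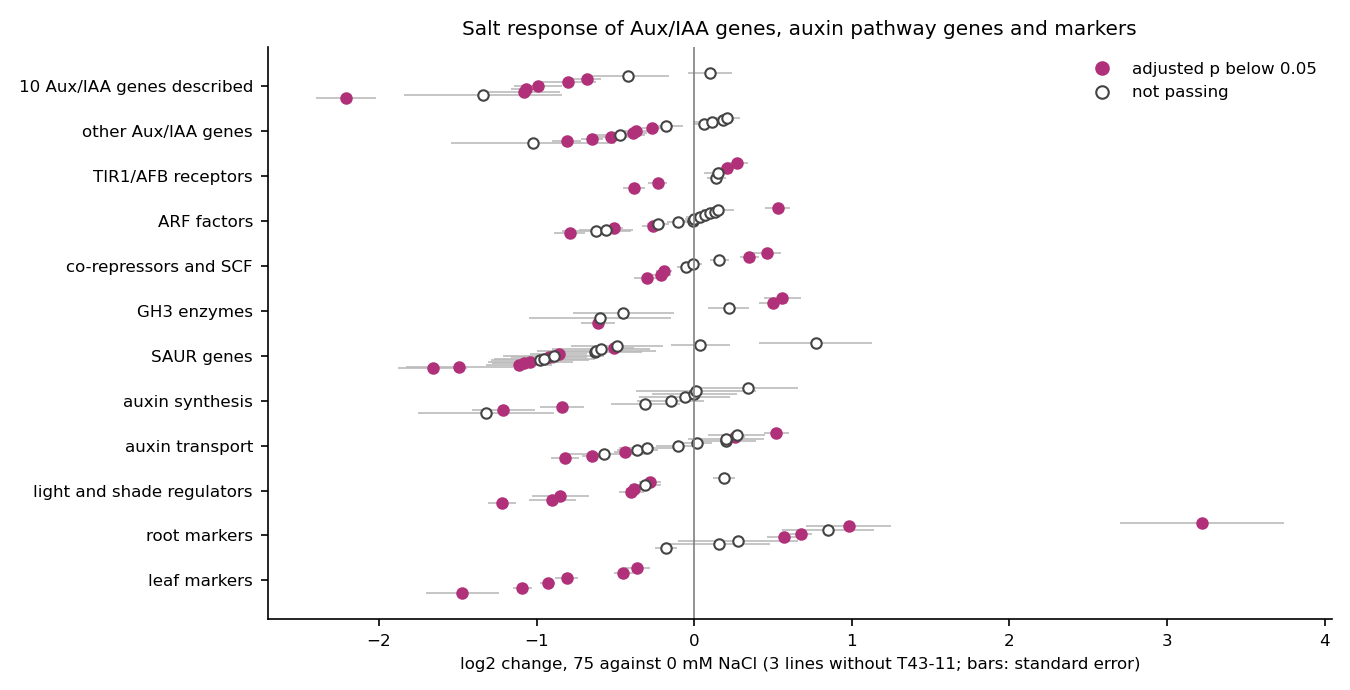
Log2 change between 75 and 0 mM NaCl in the 3-line edgeR fit for each tested gene (points, bars give the standard error), by gene list, with filled points passing an adjusted p below 0.05. Of the 9 tested Aux/IAA members 6 are filled and left of 0, of the 17 SAUR genes 8, and the 6 leaf markers are all filled and left of 0.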

How the data were processed

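The 8 libraries were made from total RNA of whole plants. The authors deposited raw counts per gene, 1 table per library; the submitters' processing notes name TopHat2 2.0.5, HTSeq and the TAIR10 build. The sources used here do not give the HTSeq version, the counting mode or the use of strand, so genes that overlap or lie antisense may share reads. Library sizes and tests used gene rows alone, without the 5 summary rows (2.49 to 2.60% of reads) and the 2 added rows. Titles gave each sample its line and salt level.

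Tests used edgeR 4.0.16 in R 4.3.3 (TMM, robust quasi-likelihood fit) on 20585 genes with at least 0.468 CPM, the equivalent of 10 counts in the median library, in 2 or more libraries; p-values were adjusted by Benjamini-Hochberg and called below 0.05. Line was a block in the salt fits, because both salt levels come from the same line. The comparison of line classes had no line block and was fitted on all 8 libraries by class and salt level. For it, the libraries of 1 salt level alone were a further alternative. DESeq2 1.42.0 with its own size factors, RLE factors in edgeR, no filter on low counts, leaving out each line, no block, and adding EV, the empty vector line, to T31-5 were alternatives; the last was added after seeing the data for the T43-11 comparison. Single-line log2 ratios used CPM with a prior count of 2 (alternative 0.5). Intervals and floors cover counting error only. The 14 gene lists, that of the 10 members among them, were chosen with earlier results of these data known; all members are named, and in other lists up to 4 genes that passed with the largest change and averaged 1 CPM or more. Symbols and sequences come from RefSeq on TAIR10.1, matched by gene identifier; the deposited tables hold no coordinates. Python 3.11.15 was used for descriptions.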

Additional observations from a re-analysis of the deposited data

Results flagged for a closer look

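Of 27 sets of 4 values (the log2 salt ratio and the log2 level at each salt level over the 4 lines, for 9 members), 1 held a value far from the rest by Dixon's test at 95%, where chance alone flags about 1 in 20 groups. It was the level of IAA14 in Col-0 at 75 mM, at 3.04 on the log2 CPM scale (8.12 CPM), with the other lines at 15.6 to 15.8 CPM. The salt response of T43-11 differed from that of the other lines by the interaction test for IAA29 (log2 difference 2.67) and for IAA7 (log2 difference 1.04).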

How the results depend on the processing

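Of 9 tested members, those passing in the 3-line salt fit numbered 6, and 3 to 8 when a line was left out (3 without EV, 5 without Col-0, 8 without T31-5); without the replicate block, in which both salt levels of a line are paired, they numbered 3. In the 4-line fit they numbered 0, 4 in DESeq2, and 0 to 6 when a line was left out (6 without T43-11). For the T43-11 difference they numbered 2, 0 to 4 when a line was left out, and 0 when EV was added to T31-5. IAA2, IAA7 and IAA29 passed in the 3-line fit under all 8 alternatives. The estimate of IAA14 changed sign, in the 3-line fit (-0.06 to 0.27 with a line left out), in the 75 mM comparison of line classes (-0.02 to 0.94 with a line left out), and in the T43-11 difference (-0.17 to 0.14 with a line left out, 0.00 with RLE factors, 0.02 in DESeq2, 0.07 with the lines summed); the cause was not tested. With CPM scaled by gene reads alone, 1 member instead of 3 was at least 2-fold lower in Col-0, since that scaling moved the median ratio of all genes by 0.14. Counts of 1 to 33 reads limit IAA6, and 2 to 19 reads IAA5. Over all genes, 2970 rose and 3172 fell in the 3-line fit, against 828 and 1228 without EV, 1478 and 1734 without T31-5, 1215 and 1563 with EV added to T31-5, and 1817 and 2236 in DESeq2. In the 4-line fit DESeq2 called 774 higher and 1017 lower where edgeR called 0. For the T43-11 difference the counts were 273 and 227, against 1538 and 1286 without Col-0, 123 and 192 without T31-5, 0 and 1 without EV, and 0 and 13 with EV added to T31-5. In the class comparison at 0 mM, leaving out T31-5 gave 132 higher and 41 lower genes.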
